A study of Mus musculus with 6 samples.

Results

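Wide distal regions are stretches of accessible chromatin of at least 2000 bp that lie away from gene starts and were called in every library of the series. They were chosen by the measured peak calls themselves. Overlapping peaks of the 6 deposited lists were merged on chromosomes 1 to 19, and a merged region was kept when it was at least 2000 bp wide, held a peak of all 6 libraries, lay more than 10 kb and at most 200 kb from the nearest 5′ end of any gene, and lay outside genes of 500 kb or more. This selected 3285 of 155412 merged regions. They made up 3.69% of the 89049 regions called in all 6 libraries and 7.51% of the 43730 such regions at the same distance from genes. Because width, location and presence in all libraries chose the regions, these properties are given as descriptions with no test.

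The libraries were made by ATAC-seq, in which the transposase Tn5 inserts sequencing adapters into accessible DNA, from testis cells of mice at postnatal day (Pnd) 5 on the 129S1/Sv background. The labels give 3 libraries of Sirt7 knockout mice (S7KO, Sirt7-/-), which lack a deacetylase of histones and other proteins, and 3 of wild-type mice (WT), with replicate numbers of 1, 2 and 4 in both genotypes. Each library started from 50000 cells. They carried the label spermatogonia, the germ cells that divide by mitosis before meiosis, and were enriched by letting somatic cells attach to a plate and collecting the cells that stayed loose. The study checked the enrichment by the spermatogonial marker PLZF and shows this for WT cells. How many somatic cells remained in each library is not known from the peak lists. Sirt7-/- mice carry the deletion in every tissue, so the somatic cells of the S7KO testis lacked SIRT7 as well.

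The lists held 105754 to 133695 peaks. The background fragment coverage that the peak caller's own values imply ranged from 4.72 to 6.03 in S7KO and was 4.74 in WT replicate 1, 2.92 in WT replicate 2 and 6.0 in WT replicate 4. WT replicate 2 thus had the lowest implied background coverage and also the fewest peaks. The main genotype comparisons below are given with and without it. All 31 spermatogonial marker genes examined had a peak within 3 kb of their 5′ end in every library, but so did 18 of 19 Sertoli cell, 11 of 12 Leydig cell, 12 of 14 peritubular or stromal and 7 of 12 vascular or immune marker genes. An open promoter therefore did not separate the cell types, and the bulk libraries cannot tell a region open in all cells from a region open in some of them.

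Accessible chromatin far from promoters often marks enhancers, sequences that bind transcription factors and act on a gene at a distance. Such sites are usually narrow, and long stretches can hold many factor-binding sites side by side. In male germ cells, distal sites near genes for self-renewal, differentiation and signalling take part in the switch from stem cell to differentiating spermatogonium.

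The gene starts used by the rule were the outermost 5′ ends of genes, and some wide distal regions turned out to hold the start of a shorter transcript. Of the 3152 regions on the chromosomes for which RefSeq transcript starts were used, 113 (3.59%) held such a start, compared with 1.03% of the 38907 narrower regions there that met every other part of the rule. Wider regions have more room for a start, with a median width of 2334 bp against 904 bp. Within 3 kb of a start the shares were 4.09% and 1.77%. In all, 133 starts of 111 genes were found. The 5 windows printed here are the 250 bases before such a start. Their genes come from the gene lists described further down, and each gene's own nearest wide distal region holds the start. As examples of sequence before such starts, the windows do not describe the wide distal regions without one. They were chosen after the values were seen. They come from RefSeq (GRCm38.p6) and read 5′ to 3′ along the gene's strand. Capitals mark matches, on either strand, to 6 short motifs, and overlapping matches form a single run of capitals. The motifs were the GC box GGGCGG, the CCAAT box CCAAT, the TATA box TATAAA, the Ets core CCGGAAG, the nuclear receptor motif AGGTCA and the SOX site ACAAAG.
Esrrb, chr12:86421394-86421643, plus strand: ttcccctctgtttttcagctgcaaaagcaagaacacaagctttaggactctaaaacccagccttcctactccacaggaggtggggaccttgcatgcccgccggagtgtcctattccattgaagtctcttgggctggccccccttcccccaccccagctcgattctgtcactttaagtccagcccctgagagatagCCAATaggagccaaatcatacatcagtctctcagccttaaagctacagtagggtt
Prdm1, chr10:44458749-44458998, minus strand: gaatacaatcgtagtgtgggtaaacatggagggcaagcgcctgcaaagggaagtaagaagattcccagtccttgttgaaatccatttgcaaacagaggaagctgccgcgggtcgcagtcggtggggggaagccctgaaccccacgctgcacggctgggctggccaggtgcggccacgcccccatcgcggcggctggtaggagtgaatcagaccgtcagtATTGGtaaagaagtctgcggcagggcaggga
Tjp1, chr7:65371245-65371494, minus strand: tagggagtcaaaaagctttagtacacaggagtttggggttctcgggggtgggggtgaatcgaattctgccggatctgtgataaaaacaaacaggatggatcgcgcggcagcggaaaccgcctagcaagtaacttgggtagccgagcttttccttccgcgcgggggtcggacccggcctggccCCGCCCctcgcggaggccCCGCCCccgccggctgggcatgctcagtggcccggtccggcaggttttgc
Nr4a1, chr15:101266596-101266845, plus strand: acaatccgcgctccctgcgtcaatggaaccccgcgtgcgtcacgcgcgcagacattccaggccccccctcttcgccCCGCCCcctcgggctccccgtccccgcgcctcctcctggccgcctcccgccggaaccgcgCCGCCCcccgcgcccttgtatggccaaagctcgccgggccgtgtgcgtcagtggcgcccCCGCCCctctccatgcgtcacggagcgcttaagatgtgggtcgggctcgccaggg
Hoxc4, chr15:103034145-103034394, plus strand: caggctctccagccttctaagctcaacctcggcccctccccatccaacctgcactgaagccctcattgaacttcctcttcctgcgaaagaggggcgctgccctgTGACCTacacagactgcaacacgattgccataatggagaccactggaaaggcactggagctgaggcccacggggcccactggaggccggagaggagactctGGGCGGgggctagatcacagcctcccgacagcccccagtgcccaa

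Esrrb encodes an orphan nuclear receptor of the pluripotency network, and its window was poor in CpG, with an observed to expected ratio of 0.188. It held a CCAAT box and no GC box. Prdm1 (BLIMP1), a repressor needed for primordial germ cells, had a ratio of 0.710 and a CCAAT box on the opposite strand. Tjp1 (ZO-1), a tight junction protein, had a ratio of 0.890 and GC boxes. Nr4a1, an immediate early nuclear receptor, had the highest ratio of the 5 at 1.05, also with GC boxes. Hoxc4, a homeobox factor of the HoxC cluster, had a ratio of 0.340, with a GC box and a nuclear receptor motif. By ratio and capitals, the windows ranged from CpG-rich with GC boxes (Nr4a1, Tjp1) to CpG-poor, with a GC box (Hoxc4) or without (Esrrb).

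Over all 133 windows the median observed to expected CpG ratio was 0.584 and the median GC content 59.2%, compared with 0.379 and 52.4% in the 31396 RefSeq windows of the same length on these chromosomes. A GC box was found in 51.9% of the windows inside wide distal regions and in 33.0% of all windows. The CCAAT box was found in 27.8% and 33.7%, the TATA box in 8.27% and 12.4%, the Ets core in 5.26% and 7.01%, the nuclear receptor motif in 9.77% and 14.1% and the SOX site in 13.5% and 16.3%. These shares are descriptions of letters in a window, and several windows overlap because a gene can have nearby starts. The windows compared with them were taken whether or not a peak lay there. Starts with a peak were not compared separately. The letters of the other wide distal regions were not analysed here.

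The widths piled up near the lower limit. A peak's width depends on which fragments were used to call it, and the sources used here leave that open. The median width was 2334 bp, the quartiles were 2141 and 2672 bp and the widest region measured 5702 bp. Of the 3285 regions, 1185 reached 2500 bp, 388 reached 3000 bp, 34 reached 4000 bp and 2 reached 5000 bp. At the lower limit the series was continuous, with 581 regions in the first 100 bp above it and 700 regions of the same location in the 100 bp below it. The narrowest region, inside Jph2 (junctophilin 2), was 2000 bp wide and had 1645 to 1867 bp under peaks in the 6 libraries. Just below the limit, a region upstream of Gmppa had 1824 to 1983 bp under peaks. The regions summed to 8.12 Mb.

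The median distance to the nearest gene 5′ end was 24.7 kb, with quartiles of 15.7 and 42.4 kb. Within 20 kb lay 1261 regions (38.4%), within 50 kb 2654 (80.8%) and within 100 kb 3127 (95.2%). The inner limit also fell in a continuum, with 151 regions between 10 and 11 kb and 184 wide regions between 9 and 10 kb. The region closest to the limit lay inside Pax6, a paired-box factor, at 10006 bp from the 5′ end of the antisense gene Pax6os1, with 2346 to 3042 bp under peaks. A wide region near Eea1 was left out at 9991 bp. At the outer limit, a region inside Plch1 lay 199873 bp away, and a region near Stxbp6 was left out at 203236 bp.

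The nearest gene was protein-coding for 1387 regions (42.2%), a lncRNA for 1267 (38.6%) and of another kind for 631 (19.2%). Relative to the nearest protein-coding gene, 1340 regions (40.8%) lay upstream, 1105 (33.6%) inside its body and 821 (25%) downstream, and for 19 the strand of the gene was not known. The narrower distal regions were placed much the same, with 42.1% upstream, 32.5% inside and 24.8% downstream. Across chromosomes the density ran from 1.76 regions per Mb of eligible sequence on chromosome 14 to 3.05 on chromosomes 17 and 19, against 2.24 over all. Eligible sequence is sequence at the distance and outside the long genes that the rule asks for, and it summed to 1468 Mb.

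The width of a region is the union of 6 peak sets, so the length under peaks in any single library could be shorter and was never longer. The length under peaks is called covered length here. Its median over the regions reached 1956, 1979 and 1993 bp in S7KO replicates 1, 2 and 4, and 1945, 1515 and 1965 bp in WT replicates 1, 2 and 4. WT replicate 2 was low, and the other 5 libraries lay close together. At least 2000 bp was covered in every library in 461 regions and in no library in 484. The library with the longest coverage exceeded the shortest by a median factor of 1.78. WT replicate 2 was the shortest library in 1785 regions (54.3%). In 1955 regions (59.5%) each library had a single peak, which need not span the region, and no library had more than 3 peaks in a region.

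**Figure D1:**
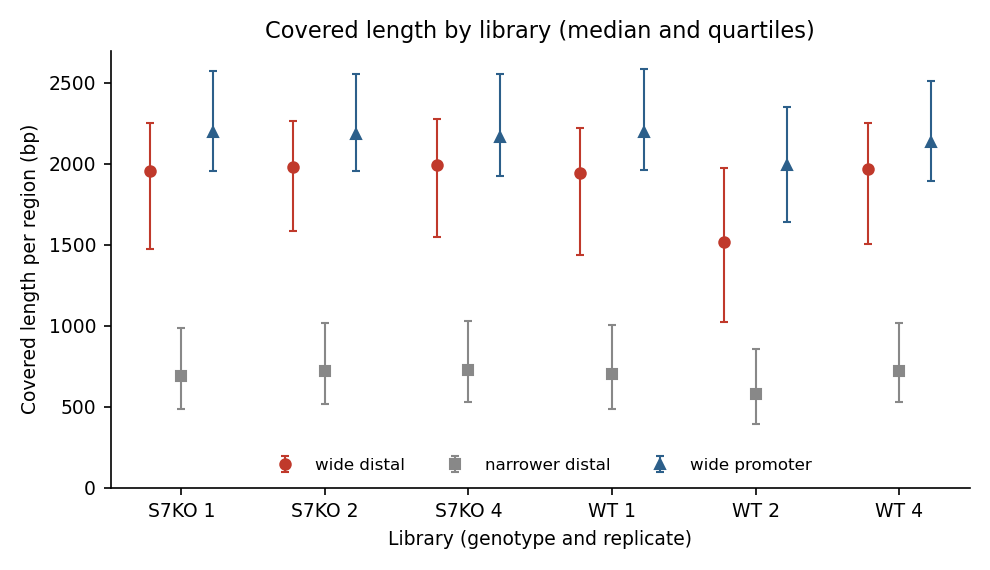
Covered length per region (bp, y axis) in each library (x axis), as the median (symbol) with the quartiles (bars), for wide distal regions, narrower distal regions and wide promoter regions within 3 kb of a 5′ end. The median of the wide distal regions was 1515 bp in WT replicate 2 and 1945 to 1993 bp in the other 5 libraries.

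The widest regions were spread over the ranks. Each peak was ranked within its own list by the peak caller's −log10 q, as a percent of the list with 0 at the strongest. A region took the best rank of its peaks. How far a rank or fold enrichment depends on the length of the peak was not tested. The widest region lay inside the body of Hnrnpa3, an RNA-binding protein gene, at chr2:75669322-75675023. Its covered length was 3323, 3558 and 3258 bp in S7KO and 4364, 2545 and 4559 bp in WT, as 2 or 3 peaks per library. The S7KO values fell inside the WT range. Its ranks ran from 44.7% to 72.2%, in the middle of the lists or weaker.

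The next region by width, 5117 bp at chr19:45027819-45032935 past the 3′ end of Lzts2, a leucine zipper tumour suppressor, ranked higher, at 14.8% to 53.6%. Its covered length was 3199, 3901 and 4239 bp in S7KO and 4108, 3166 and 2415 bp in WT, and the groups overlapped. The third region, 4784 bp at chr17:30212292-30217075 just beyond Zfand3, was among the weakest, at 84.1% to 95.8%. It had 3591, 2887 and 3292 bp in S7KO and 2031, 840 and 3605 bp in WT, so that its WT values spanned more than the whole S7KO range.

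The other 7 of the 10 widest regions measured 4398 to 4621 bp. Their nearest protein-coding genes were Eps15 (an endocytic adaptor), Dnaja1 (a heat shock cochaperone), Thumpd2, Kctd1, Cand1 (an assembly factor of cullin ubiquitin ligases), Ttyh3 and Clybl. Eps15 ranked at 67.4% to 91.4% and Thumpd2 at 70.4% to 92.1%, whereas Kctd1 (28.0% to 41.4%) and Cand1 (31.9% to 43.5%) ranked in the upper part of the lists. The fold enrichment over the local background given by the peak caller was low, 2.4 to 2.7 in all 6 libraries for Kctd1.

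**Figure D2:**
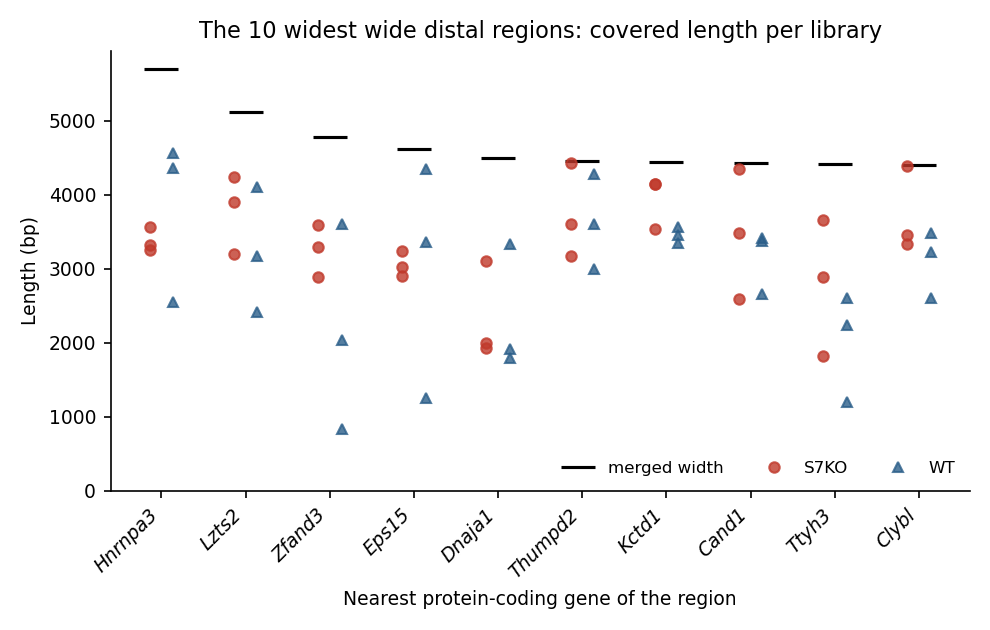
Covered length (bp, y axis) in each S7KO library (circles) and WT library (triangles) of the 10 widest wide distal regions, named on the x axis by their nearest protein-coding gene, with the merged width as a bar. For Hnrnpa3 no library came near the merged width of 5702 bp, the longest being 4559 bp.

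Over all wide distal regions the median rank was 43.3%, 40.6% and 40.3% in S7KO and 42.6%, 47.6% and 40.8% in WT. Only 8 regions lay within the strongest 5% of the list in every library, 49 within the strongest 10% and 348 within the strongest 25%, while 666 lay beyond 50% in every library. As a point of reference, 5105 regions of at least 2000 bp called in all 6 libraries lay within 3 kb of a gene 5′ end. Their median rank averaged 20.8% ± 2.32 (SD, n = 6 libraries), against 42.6% ± 2.76 for the wide distal regions, a difference of 21.8 points in the same direction in 6 of 6 libraries (exact two-sided sign-flip permutation test, p = 0.031, adjusted over 2 comparisons 0.031, the smallest the test can give). This comparison was added after the data were seen, and its p measures the spread between libraries and not between regions. Wide distal regions had 1.18 ± 0.0302 peaks per region against 1.10 ± 0.0282 in the wide promoter regions, and 74.4% ± 6.6 of their width was covered against 85.3% ± 4.14 (SD, n = 6 libraries). Both values come from the peak positions that chose the regions, so the differences between the sets were not tested. The narrower distal regions had median ranks of 39.6% to 49.8%, close to those of the wide ones, and since width chose the regions no test was made.

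**Figure D3:**
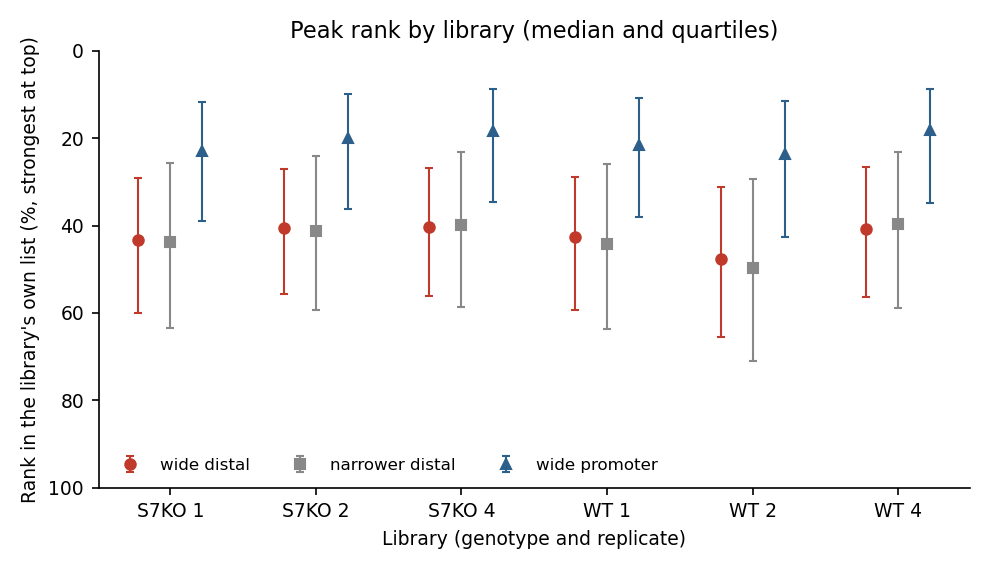
Rank of the best peak of a region within the list of its library (percent, y axis, strongest at the top) by library (x axis), as the median with the quartiles, for wide distal, narrower distal and wide promoter regions. The wide promoter medians lay at 18.04% to 23.6%, above both distal sets in each library.

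The nearest protein-coding gene of a wide distal region usually had an open promoter. In 2971 regions (90.4%) it had a peak within 3 kb of its 5′ end in all 6 libraries, and in 224 (6.82%) in none. Per library the share averaged 91.9% ± 0.422 (SD, n = 6 libraries), compared with 91.3% ± 0.493 for the narrower distal regions and 74.2% to 76.1% of all protein-coding genes. The difference of 0.641 percentage points had the same sign in 6 of 6 libraries (exact two-sided sign-flip permutation test, p = 0.031, the smallest possible). All libraries scored the same regions and genes, and few of these genes varied between libraries. This p thus measures the spread between libraries and cannot tell whether the wide and narrower regions differ. It shrank to 0.0110 points (p = 0.844, same exact permutation test) when the promoter peak had to lie within 1 kb, and to 0.0563 points (p = 0.781, same exact permutation test) for regions of at least 3000 bp, so it depended on both choices.

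The 3285 regions shared 2528 nearest protein-coding genes. Of these genes, 569 had at least 2 regions, 136 at least 3 and 36 at least 4. Arid5b, a DNA-binding cofactor of histone demethylation, had 7 regions of 2016 to 4105 bp in only 0.182 Mb of eligible sequence, 6 of them inside its body. Their summed covered length was 14.1, 14.6 and 13.7 kb in S7KO and 14.5, 12.2 and 13.9 kb in WT, and the groups overlapped. Ajap1, an adherens junction protein gene, also had 7, of which 5 lay downstream at up to 384 kb. Their sum was 13.8, 12.9 and 14.7 kb in S7KO and 14.4, 10.2 and 14.2 kb in WT. Maml3, a coactivator of Notch signalling, had 7 with 6 inside its body, and was the most even of these genes, at 13.9, 14.2 and 13.6 kb in S7KO and 14.1, 13.5 and 14.7 kb in WT.

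A further 7 genes had 5 regions each. Around Zfand3 the sums were 12.3, 10.7 and 12.1 kb in S7KO and 8.83, 6.11 and 9.78 kb in WT, the only one of these 10 genes in which all S7KO sums exceeded all WT sums. Dyrk1a, a protein kinase, had regions of up to 4310 bp. Coch had all 5 upstream of the gene in 0.112 Mb of eligible sequence that held just 1 narrower region. Rragc, a GTPase of the mTORC1 pathway, had all 5 downstream. Adgrl2 (an adhesion receptor), Zfp608 and Zfp516 had theirs scattered over 28.2 to 630 kb from the gene start, 4 of 5 upstream for Zfp608. The promoter of each of the 10 genes had a peak in all 6 libraries.

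Wide distal regions lay in runs in some places. Neighbours were a median of 284 kb apart, but 488 gaps were no longer than 50 kb, and 880 regions (26.8%) fell into runs joined by such gaps. Of these runs 74 had 3 or more regions, 13 had 4 or more and 5 had 5 or more. The longest, at chr10:68089733-68232186, had 8 regions in 142 kb with Arid5b or Rtkn2 as the nearest gene. A run at Maml3 had 6 regions in 157 kb. Runs of 5 lay beside Ccdc167 and Mdga1 in 113 kb, beside Coch in 89.0 kb, and between Gsc (goosecoid) and Dicer1, the ribonuclease of microRNA maturation, in 119 kb. A run of 4 lay beside Neil2 and Gata4 in 113 kb. The densest 1 Mb stretch was on chromosome 10 and held 11. The runs other than those of Arid5b, Maml3 and Coch were picked after their values were seen.

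Gene groups are described by how many of their genes had a wide distal region. Of all 20661 protein-coding genes on these chromosomes, 12.2% were the nearest gene of at least 1 region. A long stretch of eligible sequence around a gene raises its chance of having one, so the number per Mb is given as well, beside 2.24 over all. The lists were assembled with earlier results of these data known, and no test was made on them. Among pluripotency and germline factors 10 of 20 genes had at least 1 region (2.80 per Mb), among T-box factors 6 of 16 (3.19), among growth factor signalling genes 13 of 37 (3.45), among cell cycle genes 7 of 20 (4.57), and among nuclear receptors 13 of 39, which at 2.16 per Mb was no denser than the genome. Forkhead factors had 13 of 41 (3.97), ETS factors 6 of 24 (3.09), KLF factors 5 of 16 (1.37), SOX factors 3 of 18 (1.194), GATA factors 1 of 5 (1.83), HOX genes 4 of 39 (14.01, from 4 regions in 0.286 Mb), ribosomal proteins 9 of 68 (3.66) and Zfp zinc finger genes 38 of 360 (3.94). Olfactory receptors had 4 of 1100 (0.649) and vomeronasal receptors 1 of 352 (0.102). Chromatin regulators and sirtuins had 2 of 26 (2.34), which were Dnmt3a and Tet3.

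The narrower distal regions were also dense near several of these groups. Over all genes there were 27.5 narrower regions per Mb, and 7.51% of all distal regions were wide. Pluripotency and germline factors had 39.9 narrower regions per Mb and a wide share of 6.56%, T-box factors 45.6 and 6.54%, growth factor signalling genes 42.2 and 7.55%, ETS factors 40.2 and 7.14% and spermatogonial genes 52.8 and 7.84%. For these groups wide regions thus made up about as much of the distal regions as over all genes, or less. The wide share was higher for forkhead factors (11.6%), zinc finger genes (11.1%), cell cycle genes (10.3%) and HOX genes (19.05%, 4 wide beside 17 narrower regions). It was also higher for ribosomal proteins (9.80%) and Leydig cell genes (13.2%, 5 wide beside 33 narrower regions). Lower shares were found for SOX (3.42%) and KLF (3.57%) factors, peritubular and stromal genes (4.05%) and vascular and immune genes (3.17%).

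**Figure D4:**
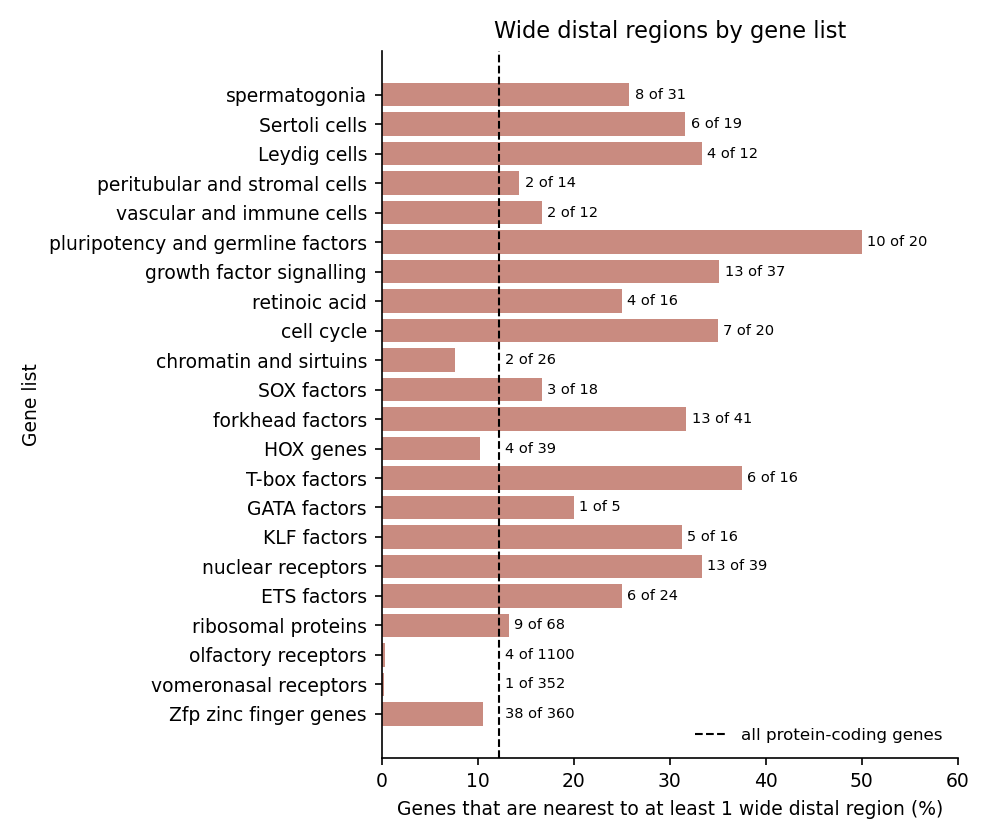
Share of the genes of each list (y axis) that were the nearest protein-coding gene of at least 1 wide distal region (percent, x axis), with the counts beside the bars. The dashed line is the 12.2% of all protein-coding genes. The pluripotency and germline factors had the longest bar, 10 of 20, and the chemoreceptor lists the shortest.

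Among the 31 spermatogonial genes 8 had a region, 12 regions in all (4.50 per Mb). Dazl, an RNA-binding protein of germ cells, had a region of 3528 bp downstream (chr17:50275571-50279098) that was covered over 2418, 3135 and 1191 bp in S7KO and 3410, 2592 and 2425 bp in WT, and whose ranks of 75.3% to 89.2% were weak. A second region upstream of Dazl was narrower, 2678 bp, yet steadier, at 2622, 2518 and 2419 bp in S7KO and 2521, 2503 and 2600 bp in WT, and stronger, at 21.9% to 28.0%. Id4, an inhibitor of DNA binding that marks spermatogonial stem cells, was the nearest protein-coding gene of a region of 3120 bp lying 489 kb upstream. It was covered over 2703, 2814 and 2948 bp in S7KO and 2860, 1952 and 3102 bp in WT.

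The stem cell factor receptor gene Kit had a region upstream that varied most among these, with 320, 1088 and 1816 bp in S7KO and 1273, 1079 and 1891 bp in WT. Uchl1, a ubiquitin hydrolase of undifferentiated spermatogonia, had a region 12292 bp away with 2402, 2540 and 2293 bp in S7KO and 2147, 1287 and 2203 bp in WT. Here each S7KO value lay above each WT value, with a log2 difference of 0.40 (limma adjusted p = 0.996) that was 0.15 without WT replicate 2. Etv5 and Foxo1, factors of stem cell maintenance, had 2 regions each. The downstream region of Etv5 was shorter in S7KO, at 1059, 1404 and 599 bp against 1834, 1708 and 2238 bp in WT (log2 difference −0.99, limma adjusted p = 0.996, −1.07 without WT replicate 2). The upstream one had a difference of 0.58 that rested on WT replicate 2 and was −0.09 without it. Dmrt1, a sex-determination factor named here after its values were seen, had a region inside its body with 948, 1533 and 1613 bp in S7KO and 618, 568 and 743 bp in WT (log2 difference 1.06, limma adjusted p = 0.996, 0.97 without WT replicate 2). Eomes, a T-box factor, had the remaining region.

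Among genes of the other testis cells, a region was found for 6 of 19 Sertoli cell genes (2.78 per Mb) and 4 of 12 Leydig cell genes (5.14). Peritubular and stromal cells had 2 of 14 (1.32) and vascular and immune cells 2 of 12 (1.15), both below the 2.24 per Mb over all genes. The part that such cells had in the regions was not tested. Gata4, a zinc finger factor of gonadal somatic cells, had 3 regions. The widest, 3801 bp inside the gene body (chr14:63244480-63248280), ranked at 9.6% to 22.0% and had 2543, 3702 and 2607 bp in S7KO and 2621, 2771 and 2688 bp in WT. The third, upstream at chr14:63342344-63344434, had 1934, 1926 and 2070 bp in S7KO and 855, 780 and 1182 bp in WT, as a single peak in each S7KO library and as 2 peaks in each WT library (log2 difference 1.10 ± 0.16 SE, limma adjusted p = 0.404, 0.97 without WT replicate 2). Tjp1 had 3 regions inside its body, of which the one with the printed window was even across libraries, at 2135 to 2363 bp, and strong, at 7.7% to 18.3%.

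Inhba and Inhbb, the activin and inhibin beta subunits, Fshr, the receptor of follicle-stimulating hormone, and Wt1 had the other Sertoli regions. The luteinizing hormone receptor gene Lhcgr had the widest Leydig region, 3713 bp, with 3252, 3197 and 2884 bp in S7KO and 3097, 3491 and 2945 bp in WT. Nr5a1 (steroidogenic factor), Ptch1 (the hedgehog receptor) and Scarb1 (a lipoprotein receptor) were the others. Col1a2 and Nr2f2 were the peritubular and stromal genes. The Nr2f2 region, 2647 bp, was longer in each S7KO library, at 2250, 2647 and 2321 bp, than in the WT libraries, at 1807, 1265 and 1824 bp (log2 difference 0.58, limma adjusted p = 0.996, 0.40 without WT replicate 2). Cdh5 and Ptprc were the vascular and immune genes.

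Of the factors of pluripotency and the germline, Nr5a2 had the widest region, 3936 bp inside its body, with 3936, 2969 and 3041 bp in S7KO and 2998, 3721 and 3682 bp in WT. Sox2 and Mycn had several regions downstream. Nanog had a region of 2393 bp lying 34007 bp downstream, with 2206, 2120 and 1907 bp in S7KO and 2217, 2089 and 2082 bp in WT, and Tbx3 had one of 2499 bp upstream. Esrrb, whose window is printed above, was covered over 2287, 2374 and 1642 bp in S7KO and 2317, 1249 and 2414 bp in WT. Among signalling genes, Dusp6, a phosphatase that limits ERK activity downstream of FGF and GDNF receptors, had 4 regions downstream of it. The widest, 4161 bp at chr10:99284041-99288201, had 4161, 3137 and 3183 bp in S7KO and 3122, 3006 and 3147 bp in WT, and 2 more followed within 50 kb of the gene start. Smad7, the inhibitor of TGF-β signalling, also had 4, all upstream. Tcf7l2 (3 regions) and Lef1 (2 regions) encode the factors that carry Wnt signals to DNA, and Axin2 (2674 bp, 2485 to 2665 bp covered) encodes a feedback inhibitor of the same pathway. Tgfbr2 and Igf1r were the receptor genes with the widest regions.

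Among retinoic acid genes, which control entry into differentiation, the synthesizing enzymes Aldh1a1 and Aldh1a3, the degrading enzyme Cyp26b1 and the reductase Dhrs3 had 7 regions. That of Aldh1a1 was the widest, 3968 bp inside its body, with 3048, 2286 and 3092 bp in S7KO and 3864, 2985 and 3017 bp in WT. Among cell cycle genes Cdk1 had a region of 3296 bp upstream with 3057, 3222 and 3285 bp in S7KO and 3158, 2649 and 3069 bp in WT, and the inhibitor genes Cdkn2a, Cdkn1b and Cdkn1c had regions of 3171, 3111 and 2092 bp. Cdkn1b was longer in S7KO by 0.57 on the log2 scale (limma adjusted p = 0.996, 0.48 without WT replicate 2), with overlapping groups, at 2746, 1814 and 2825 bp against 1567, 1436 and 1922 bp. Dnmt3a, a de novo DNA methyltransferase, had 2 regions inside its body and Tet3, a methylcytosine dioxygenase, had 1, which at 1840, 1833 and 1833 bp in S7KO and 1713, 1547 and 1819 bp in WT was a little longer in each S7KO library. The widest regions of the other lists belonged to Foxo3 and Foxq1 among the forkhead factors, to the glucocorticoid receptor gene Nr3c1 and Ppara after Nr5a2 among the nuclear receptors, to Ets2 and Fli1 among the ETS factors, and to Zfp703 (3999 bp) and Zfp831 (3860 bp) among the zinc finger genes.

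No wide distal region lay near Sirt7 itself. The nearest was 225 kb away, upstream of Fasn, the fatty acid synthase gene, and had 1357, 2112 and 2233 bp in S7KO and 998, 1026 and 1449 bp in WT (log2 difference 0.70, limma adjusted p = 0.996, 0.63 without WT replicate 2), with overlapping groups. The peak lists hold no measure of the Sirt7 transcript, so the genotype rests on the labels.

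The comparison between genotypes asked whether these regions were longer or shorter without SIRT7. The rule treated both genotypes alike, but its width limit used the same peak positions as covered length. A region could therefore pass by being long in either genotype alone. For this reason the shares of wide distal regions beside those of all regions are descriptions. The tests of covered length and of peaks per region carry the same limit. The wide distal regions were covered over 6.19, 6.35 and 6.35 Mb in S7KO replicates 1, 2 and 4 and over 6.11, 4.96 and 6.26 Mb in WT replicates 1, 2 and 4. S7KO replicates 2 and 4 lay above all WT libraries and WT replicate 2 lay far below the rest. The means were 6.30 ± 0.0935 and 5.78 ± 0.711 Mb (SD, n = 3 each), a difference of 0.521 Mb that was within the spread of the libraries (exact two-sided permutation test, p = 0.2, adjusted over 4 measures 0.4, smallest possible p 0.1). Without WT replicate 2 the difference was 0.113 Mb. The median covered length per region was 1976 ± 18.7 bp for S7KO and 1808 ± 254 bp for WT (n = 3 each, exact permutation p = 0.2, adjusted 0.4), and the difference of 168 bp fell to 21.0 bp without that library. Peaks per region averaged 1.17 ± 0.0255 and 1.187 ± 0.0376 (n = 3 each, exact permutation p = 0.7, adjusted 0.7), and the small difference changed sign to 0.00152 without it. The median rank averaged 41.4% ± 1.64 and 43.7% ± 3.54 (n = 3 each, exact permutation p = 0.5, adjusted 0.667), and the difference of −2.26 points came to −0.289 points without it. With 3 libraries a genotype none of these tests can go below 0.1.

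Region by region, limma was fitted to the log2 covered length of all 89049 regions called in the 6 libraries. With Benjamini-Hochberg adjustment 0 wide distal regions were called higher and 0 lower in S7KO at 0.05, as were 0% of all regions in either direction, and the smallest adjusted p was 0.0687. At an unadjusted p under 0.05, 212 wide distal regions (6.45%) were higher, beside 2.98% of all regions, and 29 (0.883%) were lower, beside 0.602% of all. All 3 S7KO values lay above all 3 WT values in 315 wide distal regions (9.59%), beside 6.86% of all regions, and below them in 38 (1.16%), beside 1.56% of all. The median log2 difference was 0.09 for the wide distal regions and 0.06 for all, and it was above 0 in 71.3% and 68.5% of them. The 5th and 95th percentiles of the wide distal regions were −0.33 and 0.81. After centring each library on its median, the unadjusted counts became 159 higher (4.84%, beside 1.93% of all regions) and 70 lower (2.13%, beside 1.55% of all). Without WT replicate 2 they were 123 higher (3.74%, beside 1.97% of all) and 72 lower (2.19%, beside 1.68% of all), and the median log2 difference was 0.01 for the wide distal regions and −0.00134 for all. The S7KO values then lay above both remaining WT values in 361 regions (10.99%, beside 8.48% of all) and below both in 266 (8.10%, beside 8.73% of all). The part that the low background coverage of WT replicate 2 had in these counts was not tested further. Nor was the part of the width limit, which a region can pass through its length in either genotype alone.

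The 3 lowest p in the higher direction belonged to regions with 1 peak in each S7KO library and 2 peaks in each WT library. A region of 2204 bp upstream of Oit3 (chr10:59501968-59504171) had 2150, 2201 and 2118 bp in S7KO and 1306, 1352 and 1368 bp in WT, with no overlap and little spread (log2 difference 0.68 ± 0.05 SE, limma adjusted p = 0.0687). A region of 2135 bp inside Akap7, an anchoring protein of protein kinase A (chr10:25278765-25280899), had 1927, 2107 and 2020 bp in S7KO and 962, 1017 and 1101 bp in WT (0.98 ± 0.07 SE, limma adjusted p = 0.0687). A region of 2283 bp inside Lamc1, the laminin gamma 1 chain (chr1:153265102-153267384), had 2185, 2238 and 2275 bp in S7KO and 1436, 1316 and 1475 bp in WT (0.67 ± 0.06 SE, limma adjusted p = 0.0974). Without WT replicate 2 the log2 differences of these regions were 0.69, 0.97 and 0.62. In none of them did a WT library reach the 2000 bp of the width limit, whereas S7KO libraries did. They could thus pass the limit through S7KO alone, and their differences and p-values are descriptions. The Oit3 and Akap7 regions ranked higher in the WT lists, at 7.1% to 9.1% and 7.5% to 9.0%, than in the S7KO lists, at 10.3% to 12.8% and 11.8% to 14.7%. The WT peaks were shorter than the S7KO peaks, and the part of length in these ranks was not tested. Among all wide distal regions 8 had 1 peak in each S7KO library and 2 or more in each WT library. In 7 of these 8, all S7KO lengths lay above all WT lengths. The reverse peak pattern was seen in 11, and in 0 of these did all S7KO lengths lie below all WT lengths. The share of all regions with such patterns is not given here.

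In the lower direction, a region of 2370 bp with Dnajc19 as its nearest protein-coding gene had 1344, 1340 and 1558 bp in S7KO and 2123, 2077 and 2243 bp in WT, as 1 peak in every library (log2 difference −0.61 ± 0.08 SE, limma adjusted p = 0.275). Regions near Ppm1l, a protein phosphatase gene (−0.80 ± 0.16 SE), and Tmem174 (−0.65 ± 0.14 SE) were the next, both with an adjusted p of 0.996. In these 3 regions each S7KO value lay below each WT value, and without WT replicate 2 the log2 differences were −0.63, −0.91 and −0.67. The Dnajc19 region reached 2000 bp only in WT libraries and could pass the width limit through WT alone. Over the 218 wide distal regions near the listed genes, 20 (9.17%) were higher and 2 (0.917%) lower at an unadjusted limma p under 0.05. Beside these stood 2.98% and 0.602% of all regions and 6.45% and 0.883% of all wide distal regions. Of the 218, 0 passed the limma adjustment, and the median log2 difference was 0.07. These counts were not repeated without WT replicate 2, and the lists were assembled with earlier results of these data known.

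**Figure D5:**
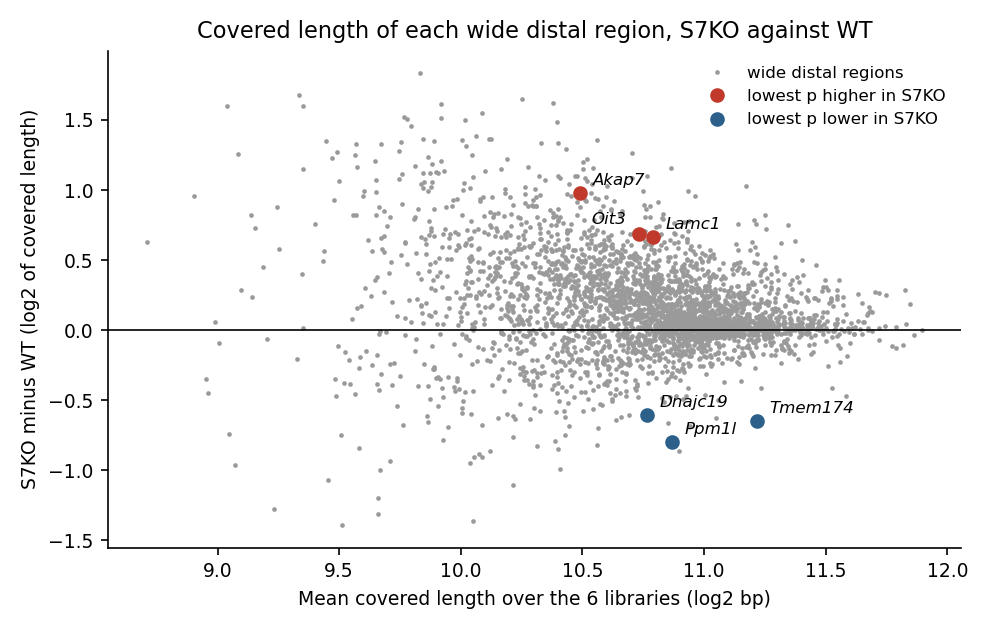
Difference between S7KO and WT in log2 covered length (y axis) against the mean log2 covered length over the 6 libraries (x axis) for each wide distal region, with the 3 regions of lowest p in each direction named by their nearest protein-coding gene. Most points lie just above 0, at a median of 0.09, and none passed the adjusted limma test.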

How the data were processed

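The authors trimmed the reads with Trim Galore 0.6.6, aligned them to mm10 with Bowtie2 2.4.4.1, kept uniquely mapped reads without duplicates and without the mitochondrial genome, shifted the ends for the Tn5 cut, filtered fragments by length (the sources name both a filter that keeps nucleosome-sized fragments and nucleosome-free profiles, and which entered the deposited peaks is not settled) and called broad peaks in each library with MACS2 2.2.5. The deposited lists give for each peak a display score, a fold enrichment over the local background (a ratio), and a p-value with its q-value, both written as −log10. The score was not used here. Fragment counts were not used here either, so no differential test on counts was made. The reads of 129S1/Sv mice were aligned to another strain's genome, and regions that do not align well in that strain would be missed in both genotypes.

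Peaks were merged where they overlapped. Covered length is the number of bases of a region under a library's peaks. A limit of this measure is that it grows with depth and when neighbouring peaks join. Gene ends came from a RefSeq table of GRCm38.p6 (47038 genes), with the strand known for 90.6%, and both ends were used for the others. As a check, 72.2% of 5′ ends and 26.3% of 3′ ends had a peak within 1 kb in WT replicate 4. The background coverage was solved from the fold enrichment and p-value of narrow peaks only, 15391 to 19973 per library. A value near the low end of the solved values was taken, and reads were not counted. Per-library values were compared with exact permutation tests, and covered length per region with limma 3.58.1 (R 4.3.3, empirical Bayes with a mean trend, two-sided) over all 89049 regions called in all 6 libraries, with Benjamini-Hochberg adjustment. The script was tested on simulated data. RefSeq transcript starts on chromosome 18 were not used here, and its regions were left out of the shares with a start.

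The regions and gene lists were chosen with earlier results of these data known. Regions and genes are named by this rule: the 10 widest regions, the 10 protein-coding genes nearest to the most regions, up to 6 genes per list (those with the widest region), the 3 regions of lowest limma p in each direction, the region nearest to Sirt7, and those nearest to each threshold. Any other is said to be picked after its values were seen. The study describes its ATAC-seq libraries as biological replicates. It states a separate mouse per replicate for another assay. A second label numbers the libraries 2, 3 and 4, in the same order. The alternatives were an equal number of peaks per list, a stricter q-value, other width, distance and overlap rules, library centring, list rank, a replicate block and leaving out each library.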

Additional observations from a re-analysis of the deposited data

How the results depend on the processing

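The number of wide distal regions was set mostly by the width limit: 8530 at 1500 bp, 388 at 3000 bp, and 1830 when at least 50% of the region had to be covered in each library. It was 3292 when peaks were merged across gaps of up to 100 bp, 2696 with a −log10 q of at least 3, 2982 with an equal number of peaks per list, 3742 with 5′ ends of protein-coding and lncRNA genes of known strand only, 4412 with protein-coding genes only, and 3009 to 3279 with each library left out.

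In the comparison between genotypes, 2 of 3009 wide distal regions tested were called higher in S7KO with an equal number of peaks per list. With a −log10 q of at least 3, 2 of 2723 were. These fits covered 78530 and 70254 regions in all. The number called among all of them is not given here, so these calls cannot be set against the rate over all regions. Otherwise 0 were called higher, and 0 were called lower under every alternative run. The small difference in peaks per region turned positive with a −log10 q of at least 3 (0.0330), with replicates 1 and 4 only (0.00624) and without WT replicate 2 (0.00152, the highest value with a library left out, where the lowest was −0.0361). The difference in median rank was 0.0971 with replicates 1 and 4 only. No p-value of these per-library measures fell below 0.1, the smallest possible. The difference in covered length ranged from 0.113 to 0.764 Mb with a library left out and was 0.0849 Mb with replicates 1 and 4 only.

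The replicate numbers paired the libraries only in part. The correlations of same-numbered deviations were 0.113, −0.00401 and 0.128 for replicates 1, 2 and 4. For replicates 1 and 4 this was the highest correlation of the S7KO library with any WT library. In contrast, S7KO replicate 2 correlated best with WT replicate 4 (0.0445). With the replicate block 0 regions were called, as without it, and the difference in covered length had p = 0.25 (exact sign-flip permutation test over 3 pairs).

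The promoter peak difference was 0.0110 points within 1 kb, 0.0563 points for regions of at least 3000 bp and 0.607 to 0.664 points with a library left out, where 5 libraries cannot give a p below 0.0625. The rank difference from wide promoters was 21.3 to 22.1 points with a library left out. The causes of these changes were not tested. Of 107 alternatives 84 kept their direction and side of the threshold, or for a count stayed within 1.5 times. Of the 3152 regions on chromosomes with RefSeq transcript starts, 3023 lay over 3 kb from any start, and in these each per-library difference kept its direction.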

Other observations

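Chromosome X was outside the rule. The same criteria there gave 41 regions, 6.56% of 625 distal regions called in all 6 libraries, compared with 7.51% on chromosomes 1 to 19.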
